A study of Mus musculus with 12 samples.

Results

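Cytochrome P450 genes were followed in mouse kidneys after ischemia and reperfusion, in wild-type mice and in mice that lack Toll-like receptor 4 (TLR4), an innate immune receptor of bacterial products. The genes were all those whose symbol is Cyp followed by a number and whose probe set names 1 gene, other than Cyp27b1 and Cyp24a1. This gave 95 probe sets of 71 genes, among 34945 probe sets with 1 gene name. Of the 71 genes, 54 passed the filter used (a signal over the array's 40th percentile on at least 3 of 12 arrays), among 14322 genes that passed in all. These genes are called measured here, although the filter does not show that a gene was detected. The 17 genes that did not pass were Cyp1a2, Cyp2c37, Cyp2c50, Cyp2c65, Cyp2d10, Cyp2d40, Cyp2r1, Cyp3a16, Cyp3a25, Cyp3a44, Cyp4f14, Cyp4f18, Cyp4f41-ps, Cyp4x1, Cyp7a1, Cyp11a1 and Cyp17a1. A gene measured by several probe sets was represented by the one with the highest mean.

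P450 enzymes are heme proteins that insert an oxygen atom into lipids, steroids and foreign compounds, using electrons handed on by a reductase. In the kidney many are made in the proximal tubule. The CYP2C and CYP2J families turn arachidonic acid into epoxides, and the CYP4A family makes its omega-hydroxylated products. Both kinds of product act on vessel tone and salt transport. Other members break down oxysterols and retinoic acid, make steroid hormones, or oxidise drugs.

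The 12 kidneys came from male mice of 8 weeks, and every mouse had its right kidney removed in the operation. Wild-type mice were C57BL/10, and TLR4 null mice were of the substrain C57BL/10ScNJ, which lacks the receptor in all cells. Effects of TLR4 and of other differences between these substrains cannot be told apart. In the ischemic groups (3 wild type, 3 TLR4 null) the left pedicle was clamped for 23 min and the kidney was taken at 4 h of reperfusion. In the sham groups (3 wild type, 3 TLR4 null) the clip lay under the pedicle, so these are kidneys after nephrectomy and anesthesia and not untouched ones. The labels number the 3 arrays of a group as biological replicates.

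Each kidney was read on 1 array, and the number of arrays limits the precision. Median signals ran from 61.2 to 77.4. Of 4 Tlr4 probe sets, 2 had no overlap between the genotypes. One gave 65.6 to 120.4 on wild-type and 0.901 to 3.38 on TLR4 null arrays, and the other gave 72.9 to 134.8 and 6.33 to 60.4. All 8 proximal tubule markers were measured, with summed signals of 47750 to 53841 in wild-type sham, 43488 to 52089 in wild-type ischemic, 54793 to 59803 in TLR4 null sham and 47892 to 51877 in TLR4 null ischemic kidneys. Their mean log2 value was lower in ischemic than in sham kidneys by -0.24 (6 against 6 arrays, exact permutation p = 0.00216, two-sided, adjusted p = 0.0173 over 24 such tests). Lrp2, Cubn and Slc5a12 fell in both genotypes. The other 5 were not called in either, with wild-type differences of 0.13 ± 0.11 for Slc34a1, -0.08 ± 0.08 for Slc5a2, -0.00 ± 0.12 for Slc22a6, -0.26 ± 0.11 for Aqp1 and -0.00 ± 0.10 for Slc27a2. The 3' control probe set for 18S RNA read 1410.4 to 2646 in TLR4 null ischemic kidneys and 304 to 574 on the other arrays. In whole kidneys, fewer cells of a type and less RNA per cell cannot be told apart. The part of these shifts in the results was not tested.

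Promoter sequences lie before the annotated transcription starts of these genes, and no start was measured here. They were taken from a set of RefSeq promoters (build GRCm38.p6). That set had entries for 38 of the 54 measured genes and 10 of the 15 that changed after ischemia. The 250 bases before the first listed start are printed for the 4 of those 10 with the smallest p, 5′ to 3′ on the strand of the gene. They lie at chr7:25897408-25897657 (plus strand, Cyp2b10), chr15:82452127-82452376 (plus, Cyp2d9), chr4:96348681-96348930 (minus, Cyp2j11) and chr4:96553652-96553901 (minus, Cyp2j6). Capitals mark a match to any of the 7 motifs searched.
Cyp2b10: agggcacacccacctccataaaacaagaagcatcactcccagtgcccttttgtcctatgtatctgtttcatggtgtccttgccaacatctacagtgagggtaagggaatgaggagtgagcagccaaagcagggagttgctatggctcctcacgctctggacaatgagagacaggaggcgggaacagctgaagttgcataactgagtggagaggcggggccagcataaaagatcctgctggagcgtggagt
Cyp2d9: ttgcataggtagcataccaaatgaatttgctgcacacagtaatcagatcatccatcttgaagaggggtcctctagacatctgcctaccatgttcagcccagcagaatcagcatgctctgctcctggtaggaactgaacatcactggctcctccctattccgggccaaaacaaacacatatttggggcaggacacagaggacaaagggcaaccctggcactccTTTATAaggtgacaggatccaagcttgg
Cyp2j11: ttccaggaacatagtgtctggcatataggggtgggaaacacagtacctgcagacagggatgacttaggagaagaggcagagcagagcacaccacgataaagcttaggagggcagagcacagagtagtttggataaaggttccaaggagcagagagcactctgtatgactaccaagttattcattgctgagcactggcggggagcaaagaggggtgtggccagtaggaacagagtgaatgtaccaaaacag
Cyp2j6: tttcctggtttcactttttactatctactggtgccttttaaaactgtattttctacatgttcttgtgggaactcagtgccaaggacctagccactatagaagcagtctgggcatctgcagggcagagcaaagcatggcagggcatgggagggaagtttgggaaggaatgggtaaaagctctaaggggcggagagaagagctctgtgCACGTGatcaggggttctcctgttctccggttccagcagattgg
The capitals in Cyp2d9 are a TATA box core (TATAAA) on the opposite strand, 28 bases before the start. Those in Cyp2j6 are an E-box (CACGTG), 44 bases before the start. Cyp2b10 and Cyp2j11 held none of the motifs in this window.

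The search on both strands used 32851 RefSeq windows of this length, which did not cover the whole genome. Of these, TATAAA was in 12.4%, AGGTCA (the core of a nuclear receptor element) in 14%, CACGTG in 6.02% and TGACTCA (AP-1) in 4.46%. Among the 38 P450 genes with a window, these were found for 13, 9, 2 and 2. The percentages are shares of windows, while a gene was counted if any of its windows held the motif. A direct repeat element of spacing 1 (in 0.0335% of windows) and an HNF1 element (in 0.00913%) were in none of the 38. CAAAGTCCA, a form of the element bound by the tubular and liver factor HNF4A, was in 0.384% of windows and was found for 4 of the 38 P450 genes. These 4 sites were picked for display after the search, with 10 bases on each side and the element in capitals. They lie on the minus strand at chr19:39741160-39741188 (Cyp2c68), chr19:40187332-40187360 (Cyp2c70), chr5:145879945-145879973 (Cyp3a11) and chr9:121916354-121916382 (Cyp8b1).
Cyp2c68: atcattgaaaCAAAGTCCAattggaagag
Cyp2c70: aggtcaaactCAAAGTCCAaactctgtgt
Cyp3a11: aagagagtacCAAAGTCCAgtgatgcaaa
Cyp8b1: agcctctgagCAAAGTCCAagggcaggaa
Of these 4 genes, Cyp3a11 rose after ischemia in TLR4 null kidneys, and none passed the test in wild type. A match is a description of letters and not of binding.

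After ischemia more P450 genes fell than rose in both genotypes. In wild-type kidneys 9 of 54 fell and 1 rose, 18.5% of them, against 19.6% of all genes (limma, adjusted p under 0.05). Of all genes, 9.17% rose and 10.5% fell, and 16.7% of the P450 genes fell. In TLR4 null kidneys 11 fell and 2 rose, 24.1% against 21.6% of all genes, and 20.4% fell. Of all genes, 9.86% rose and 11.7% fell. The median difference, ischemic minus sham on the log2 scale of signal + 15, was -0.20 over the P450 genes and -0.09 over all genes in wild type. In TLR4 null kidneys it was -0.23 and -0.07. Under median scaling the wild-type medians became -0.13 and -0.01. The TLR4 null medians became -0.14 and -0.06 with no filter, -0.13 and -0.05 without TLR4 null sham array 1, and -0.15 and -0.04 without TLR4 null ischemic array 2. The difference was below zero for 42 of 54 genes in wild type and 41 of 54 in TLR4 null kidneys. The share below zero was not counted over all genes, but their medians, -0.09 and -0.07, also lay below zero. Groups did not overlap, with ischemia lower, for 16 genes in wild type and 15 in TLR4 null kidneys, and for 23.7% and 20.1% of all genes.

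Markers of other cell types moved with ischemia as well. Of 6 neutrophil markers 4 were measured, and S100a8 and S100a9, the subunits of calprotectin, rose, by 1.34 ± 0.21 and 1.52 ± 0.22 in wild type and by 1.07 ± 0.21 and 1.09 ± 0.22 in TLR4 null kidneys. Ngp and Csf3r were not called, at -0.28 ± 0.31 and -0.22 ± 0.35 in wild type. In TLR4 null kidneys they gave -0.08 ± 0.31 and -0.08 ± 0.35. Camp and Ly6g were below the filter. The list's summed signals were 449 to 600.0 in wild-type sham, 863 to 1394 in wild-type ischemic, 339 to 507 in TLR4 null sham and 510 to 904 in TLR4 null ischemic kidneys. Of 5 macrophage markers, all measured, Cd68 rose by 0.94 ± 0.19 and by 1.02 ± 0.19, Csf1r fell by 0.35 ± 0.09 in wild type and C1qa fell by 0.66 ± 0.13 in TLR4 null kidneys. Not called were Csf1r in TLR4 null kidneys (-0.13 ± 0.09) and C1qa in wild type (-0.22 ± 0.13). Adgre1 gave -0.25 ± 0.15 and -0.31 ± 0.15 and Lyz2 0.11 ± 0.22 and 0.27 ± 0.22, not called either. In the same order of groups the sums of the macrophage list were 2149 to 2367, 1953 to 2068, 1835 to 1917 and 1659 to 1901. Of 4 endothelial markers, all measured, Kdr fell by 0.42 ± 0.11 and Emcn fell by 0.41 ± 0.12 in TLR4 null kidneys, with sums of 2073 to 2464, 1757 to 2132, 1800 to 1981 and 1493 to 1745. Pecam1 and Cdh5 were not called there, at 0.07 ± 0.17 and 0.39 ± 0.18. None of the 4 was called in wild type, where Kdr gave -0.27 ± 0.11 and Emcn -0.31 ± 0.12. Pecam1 and Cdh5 gave -0.05 ± 0.17 and 0.19 ± 0.18 in wild type. Of 4 podocyte markers 3 were measured, and Podxl fell by 0.27 ± 0.09 in TLR4 null kidneys and gave -0.11 ± 0.09 in wild type. Synpo was not called, at 0.42 ± 0.15 in each genotype, with ischemic kidneys above all sham kidneys of their genotype. Nphs1 was not called either, at -0.16 ± 0.17 in wild type and -0.21 ± 0.17 in TLR4 null kidneys. The part of these cell types in the P450 results was not tested.

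Called in both genotypes were 7 genes that fell, Cyp2b10, Cyp2d9, Cyp2d22, Cyp2j11, Cyp4a31, Cyp7b1 and Cyp27a1, and 1 that rose, Cyp2s1. A further 2 fell past the threshold in wild type only (Cyp2c55, Cyp4a14), and 4 in TLR4 null only (Cyp2c38, Cyp2j6, Cyp11b1, Cyp20a1), where Cyp3a11 rose. Being past the threshold in 1 genotype does not show a difference between genotypes. That difference was tested for each gene as an interaction, and 0 of 54 passed (limma, adjusted), as did 0% of all genes. At an unadjusted p under 0.05 there were 6 of 54 P450 genes and 913 of 14322 genes.

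**Figure D1:**
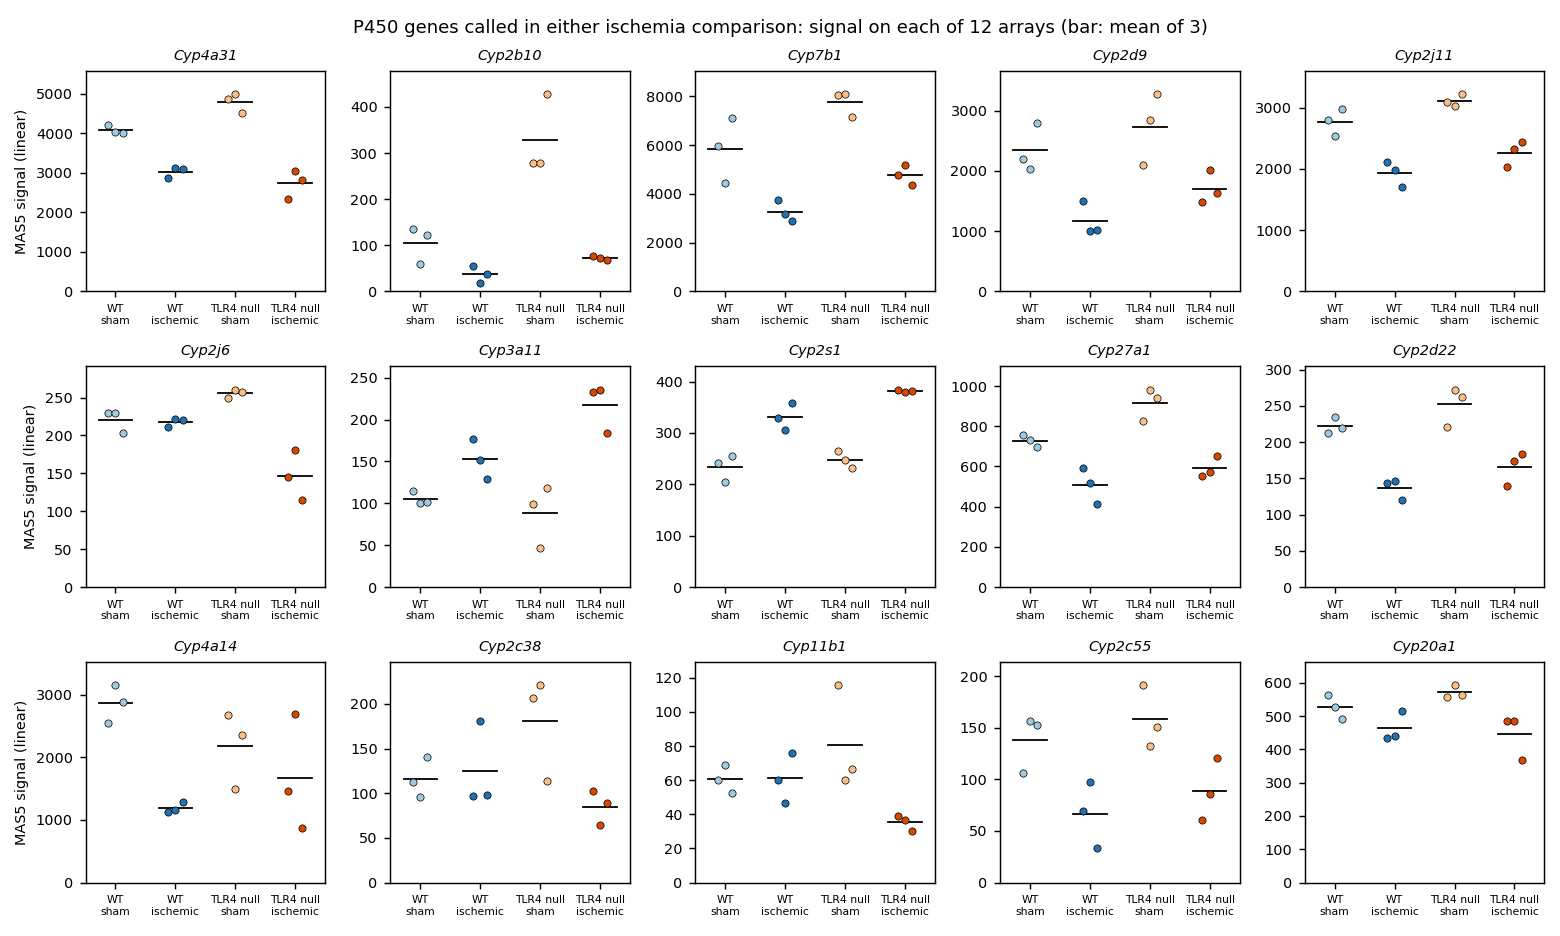
Signal (linear MAS5 units, vertical axis from 0) of the 15 P450 genes called in either ischemia comparison, on each of 12 arrays in 4 groups of 3. Points are arrays and bars are group means. Cyp7b1, Cyp27a1, Cyp2d22, Cyp2j11, Cyp4a31, Cyp2b10, Cyp2d9 and Cyp2c55 were lower in all 3 ischemic kidneys of each genotype than in its sham kidneys. Cyp2s1 and Cyp3a11 were higher in the same way.

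**Figure D2:**
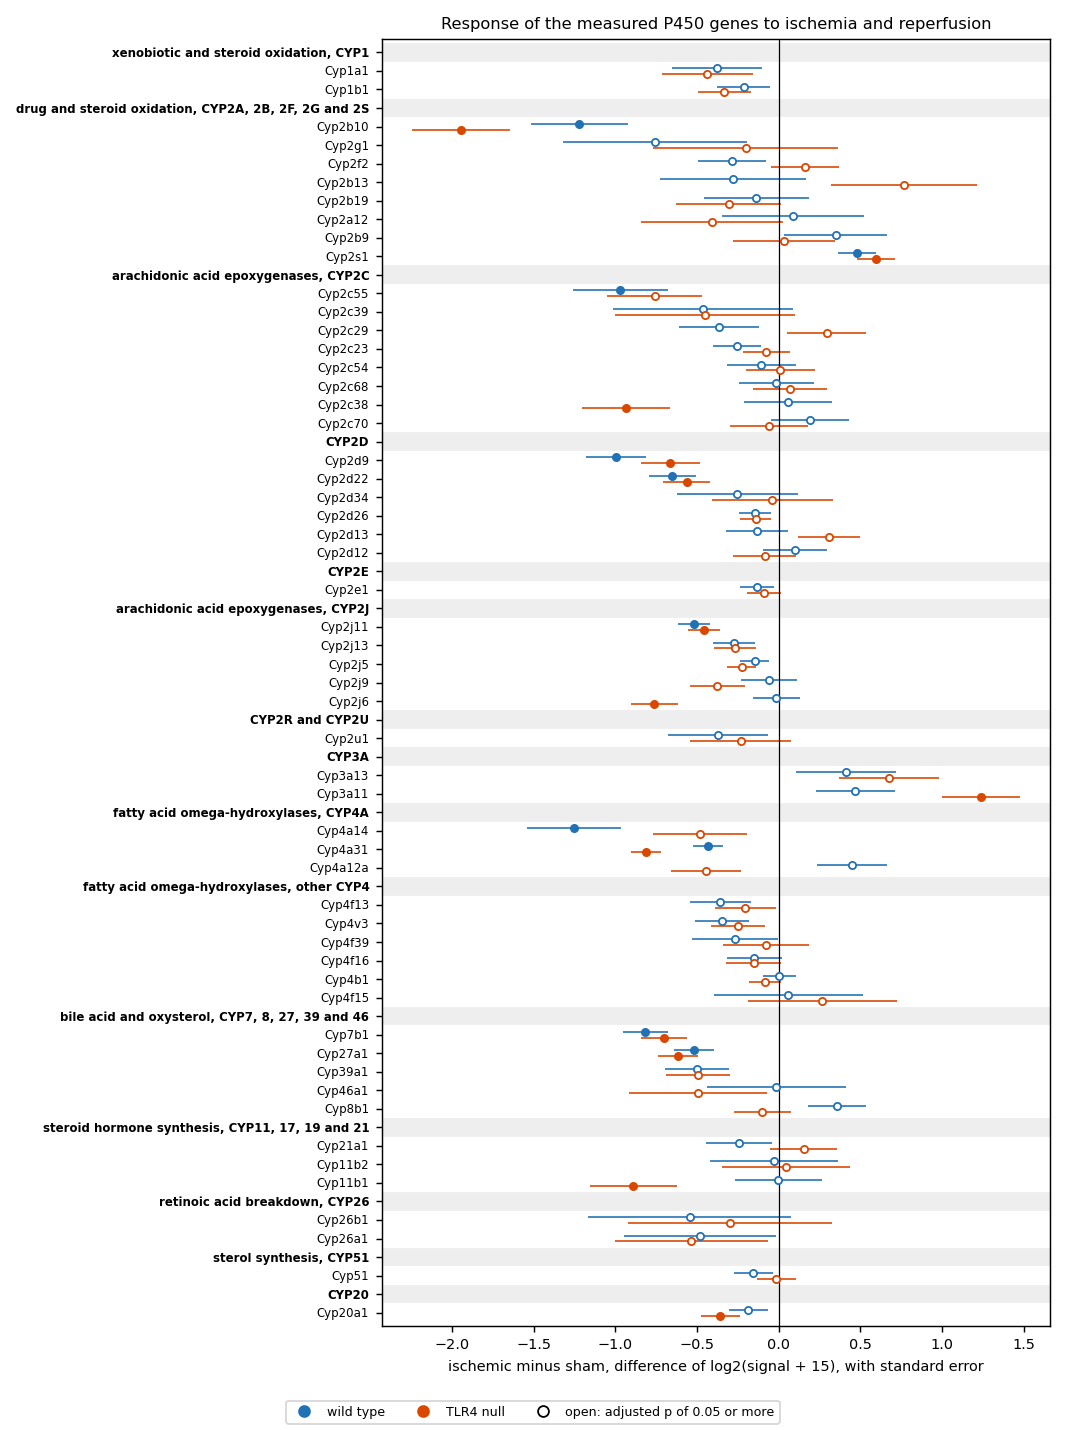
Ischemic minus sham difference of log2(signal + 15), with its standard error, for the 54 measured P450 genes in wild type (blue) and TLR4 null (orange), grouped by role. Filled points passed an adjusted p of 0.05. Most points lie left of zero, 42 of 54 in wild type and 41 of 54 in TLR4 null kidneys. The medians over all genes, -0.09 and -0.07, lie left of zero as well.

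Among the epoxygenases of the CYP2J family, 1 of 5 measured genes fell in wild type (Cyp2j11) and 2 of 5 in TLR4 null kidneys (Cyp2j11 and Cyp2j6). Beside this, 10.5% of all genes fell in wild type and 11.7% in TLR4 null kidneys. The family forms 1 cluster of neighbouring genes (assembly GRCm38.p6), and its medians were -0.15 and -0.38. Cyp2j11 read 2796, 2533 and 2974 in wild-type sham and 2108, 1984 and 1702 in wild-type ischemic kidneys. TLR4 null sham kidneys gave 3085, 3026 and 3216, and TLR4 null ischemic kidneys gave 2038, 2322 and 2436. The groups did not overlap in either genotype. Cyp2j11 fell by 0.52 ± 0.10 (SE, n = 3 per group, limma adjusted p = 0.00134) in wild type and by 0.46 ± 0.10 (adjusted p = 0.00314) in TLR4 null kidneys.

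Cyp2j6 read 230.0, 229.9 and 203 in wild-type sham and 211, 222 and 221 in wild-type ischemic kidneys, which overlap. In TLR4 null kidneys it read 249.9, 260.1 and 258 in sham and 145, 181 and 115 in ischemic ones, with no overlap. The difference was -0.02 ± 0.14 (limma adjusted p = 0.957) in wild type, and it fell by 0.76 ± 0.14 (adjusted p = 0.00148) in TLR4 null kidneys. The interaction was -0.74 ± 0.20, the smallest p of the 54 (unadjusted p = 0.00238, adjusted p = 0.519). A second Cyp2j6 probe set, fitted with all probe sets, gave -0.21 ± 0.14 (adjusted p = 0.351) and -0.31 ± 0.14 (adjusted p = 0.147), so the fall in TLR4 null kidneys rests on 1 of 2 probe sets.

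Cyp2j5, a well-known epoxygenase of the mouse kidney, read 8792 to 12896 over the 12 arrays. It differed by -0.15 ± 0.09 (limma adjusted p = 0.277) in wild type and by -0.23 ± 0.09 (adjusted p = 0.0807, or 0.0451 without wild-type ischemic array 3) in TLR4 null kidneys. Under quantile normalization the wild-type difference of Cyp2j5 was -0.28 and passed (adjusted p = 0.0102). Its second probe set fell in both, by 0.66 ± 0.10 (adjusted p = 0.000288) and by 0.41 ± 0.10 (adjusted p = 0.00903). That probe set read 1882, 1741 and 1782 in wild-type sham and 1232, 1193 and 999 in wild-type ischemic kidneys. The 2 probe sets thus disagree on whether the gene passed the test. Which one reads the main transcript was not tested.

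In the CYP2C family, the other epoxygenases, 1 of 8 measured genes fell in each genotype (10.5% and 11.7% of all genes fell). The family's medians were -0.18 and -0.07. Cyp2c55 read 106, 157 and 152 in wild-type sham and 69.3, 97.4 and 33.9 in wild-type ischemic kidneys. It fell by 0.97 ± 0.29 (limma adjusted p = 0.0281) there, and in TLR4 null kidneys the difference was -0.76 ± 0.29 (adjusted p = 0.0774). Its call in wild type was lost without any 1 of 4 arrays, wild-type ischemic 1 or 3 or wild-type sham 2 or 3 (adjusted p = 0.0524, 0.132, 0.0962 and 0.0953). The TLR4 null value passed without wild-type or TLR4 null ischemic array 3 (adjusted p = 0.0351 and 0.0369). Cyp2c38 read 207, 221 and 114 in TLR4 null sham and 102, 64.3 and 88.7 in TLR4 null ischemic kidneys.

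Cyp2c38 fell by 0.94 ± 0.27 (limma adjusted p = 0.0215) in TLR4 null kidneys, and in wild type the difference was 0.06 ± 0.27 (adjusted p = 0.916). That fall was lost without TLR4 null ischemic array 2, or sham array 1 or 2 (adjusted p = 0.0841, 0.0809 and 0.0959). Cyp2c23, a renal epoxygenase, read 546 to 1019 over the arrays. It differed by -0.26 ± 0.15 (adjusted p = 0.254) in wild type and -0.07 ± 0.15 (adjusted p = 0.777) in TLR4 null kidneys. Its probe set carries the suffix for probes that related transcripts share, so its values are uncertain.

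The fatty acid omega-hydroxylases of the CYP4A family fell in 2 of 3 measured genes in wild type and 1 of 3 in TLR4 null kidneys. The shares of all genes that fell were 10.5% and 11.7%. Some CYP4A genes are textbook targets of the lipid sensor PPARA. Cyp4a31 read 4209.6, 4043 and 3999.9 in wild-type sham and 2860.3, 3131 and 3087 in wild-type ischemic kidneys. Without TLR4 it read 4863, 4988 and 4519.5 in sham and 2329.8, 3047 and 2819.5 in ischemic kidneys. Neither genotype had an overlap. Cyp4a31 fell by 0.43 ± 0.09 (limma adjusted p = 0.00367) in wild type and by 0.81 ± 0.09 (adjusted p = 1.76e-05) in TLR4 null kidneys, the smallest p of the 54 genes.

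The interaction of Cyp4a31 was -0.38 ± 0.13 (limma adjusted p = 0.651). Its second probe set also fell in both genotypes, by 0.98 ± 0.11 and by 0.73 ± 0.11, with the larger fall in wild type. The call in wild type was lost under median scaling (adjusted p = 0.0771). A probe set shared by Cyp4a31 and Cyp4a10, which is outside the 54, fell by 0.61 ± 0.12 and by 0.59 ± 0.12.

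Cyp4a14 read 2553, 3148 and 2881 in wild-type sham and 1124, 1162 and 1284 in wild-type ischemic kidneys, with no overlap. In TLR4 null kidneys the values overlapped, at 2675, 1493 and 2359.7 in sham and 1466, 2693 and 869.6 in ischemic ones. Cyp4a14 fell by 1.25 ± 0.29 (limma adjusted p = 0.00614) in wild type, and the difference was -0.48 ± 0.29 (adjusted p = 0.277) in TLR4 null kidneys. Without TLR4 null ischemic array 2, the high one, the latter became -0.89 (adjusted p = 0.0109). Cyp4a12a, the main arachidonic acid omega-hydroxylase of male mouse kidney, differed by 0.45 ± 0.22 (adjusted p = 0.171) in wild type and by -0.45 ± 0.22 (adjusted p = 0.164, or 0.0199 without wild-type sham array 2) in TLR4 null kidneys. Its interaction was -0.89 ± 0.30 (adjusted p = 0.651).

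The other CYP4 enzymes, CYP4B, CYP4F and CYP4V, had 6 measured genes, and none was called in either genotype. Their differences ran from -0.36 to 0.06 in wild type and from -0.25 to 0.27 in TLR4 null kidneys. Cyp4b1 oxidises fatty acids and aromatic amines. It read 13103 to 16561 on the wild-type arrays and 16958 to 19971 on the TLR4 null ones, and its ischemia differences were 0.00 ± 0.10 and -0.09 ± 0.10.

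Of the bile acid and oxysterol enzymes, 2 of 5 measured genes fell in both genotypes (10.5% and 11.7% of all genes fell). Cyp7b1 inactivates oxysterols by hydroxylation. It read 5960.2, 4464 and 7095 in wild-type sham and 3758, 3170.5 and 2882 in wild-type ischemic kidneys. For TLR4 null mice the sham values were 8053, 8078 and 7148 and the ischemic values 4788, 5166 and 4343. Every ischemic kidney lay below every sham kidney of its genotype. Cyp7b1 fell by 0.82 ± 0.14 (limma adjusted p = 0.000718) in wild type and by 0.70 ± 0.14 (adjusted p = 0.00214) in TLR4 null kidneys, and its second probe set fell by 0.89 ± 0.16 and 0.78 ± 0.16.

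Cyp27a1 is the mitochondrial enzyme that oxidises the side chain of cholesterol. It read 758, 730.1 and 699 in wild-type sham and 592, 520.0 and 414 in wild-type ischemic kidneys. The TLR4 null values were 828, 981 and 939.5 in sham and 553, 572 and 652 in ischemic kidneys. Again the groups did not overlap. Cyp27a1 fell by 0.52 ± 0.12 (limma adjusted p = 0.00673) in wild type and by 0.62 ± 0.12 (adjusted p = 0.00195) in TLR4 null kidneys, and the wild-type call was lost under median scaling (adjusted p = 0.0656).

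Among the drug- and steroid-oxidising CYP2A, 2B, 2F, 2G and 2S genes, 1 of 8 measured fell and 1 rose in each genotype, the same 2 genes. The shares of all genes were 10.5% lower and 9.17% higher in wild type, and 11.7% and 9.86% in TLR4 null kidneys. Cyp2b10, the classic target of the xenobiotic receptor CAR, read 135, 59.9 and 123 in wild-type sham and 55.1, 17.7 and 38.5 in wild-type ischemic kidneys. TLR4 null sham kidneys gave 278, 279.6 and 428, and TLR4 null ischemic kidneys gave 77.5, 72.7 and 67.2. The ischemic values were lower with no overlap in both genotypes, and the highest group was TLR4 null sham. Cyp2b10 fell by 1.22 ± 0.30 (limma adjusted p = 0.00896) in wild type and fell by 1.95 ± 0.30 (adjusted p = 0.000273) in TLR4 null kidneys. Without wild-type sham array 1 the wild-type fall was 1.03 (adjusted p = 0.0503).

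Cyp2b10 has 3 probe sets, and 2 of them carry a suffix for probes shared by related transcripts. In the fit of all probe sets, the second shared one fell by 2.03 ± 0.41 (limma adjusted p = 0.00294) in wild type and fell by 2.60 ± 0.41 (adjusted p = 0.000382) in TLR4 null kidneys. The third, without that suffix, gave 0.10 ± 0.22 (adjusted p = 0.828) in wild type and fell by 1.29 ± 0.22 (adjusted p = 0.000763) in TLR4 null kidneys. It read 72.9, 46.9 and 64.0 in wild-type sham and 54.1, 83.5 and 62.4 in wild-type ischemic kidneys. Without TLR4 it read 116, 156 and 165 in sham and 45.2, 52.2 and 53.0 in ischemic kidneys. All 3 probe sets fell in TLR4 null kidneys, and 2 of 3 in wild type.

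Cyp2s1, an enzyme found mainly outside the liver, read 242, 204 and 255 in wild-type sham and 329, 306 and 359 in wild-type ischemic kidneys. For TLR4 null mice the sham values were 264, 247 and 232 and the ischemic values 384, 379.8 and 381. It rose by 0.48 ± 0.12 (limma adjusted p = 0.00802) in wild type and by 0.60 ± 0.12 (adjusted p = 0.00175) in TLR4 null kidneys. Cyp2s1 and Cyp2b10 are neighbours in 1 cluster (assembly GRCm38.p6) and moved in opposite directions.

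In the CYP2D family 2 of 6 measured genes, Cyp2d9 and Cyp2d22, fell in both genotypes (10.5% and 11.7% of all genes fell). Both lie in the same gene cluster as the other 4, which were not called. Cyp2d9, a steroid hydroxylase known from male mouse liver and kidney, read 2199.8, 2025 and 2796 in wild-type sham and 1499, 997 and 1028 in wild-type ischemic kidneys. The TLR4 null values were 2094, 2843 and 3272 in sham and 1479, 2011 and 1634 in ischemic kidneys. Cyp2d9 fell by 1.00 ± 0.18 (limma adjusted p = 0.00116) in wild type and by 0.66 ± 0.18 (adjusted p = 0.0163) in TLR4 null kidneys. The latter call was lost without TLR4 null ischemic array 1, or sham array 2 or 3 (adjusted p = 0.0699, 0.0591 and 0.0842), and its probe set carries a suffix for probes that transcripts can share.

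Cyp2d22 read 212, 235 and 219 in wild-type sham and 144, 146 and 119 in wild-type ischemic kidneys. TLR4 null sham kidneys gave 221, 272 and 262, and TLR4 null ischemic kidneys gave 140.0, 174 and 183. It fell by 0.65 ± 0.14 (limma adjusted p = 0.00445) and by 0.56 ± 0.14 (adjusted p = 0.0103). Its second probe set fell in wild type by 0.73 ± 0.14 (adjusted p = 0.0022), and in TLR4 null kidneys it gave -0.27 ± 0.14 (adjusted p = 0.228). Without TLR4 null ischemic array 1 the fall there was 0.46 (adjusted p = 0.0528).

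In the CYP3A family, drug oxidisers under the xenobiotic receptor PXR, 2 of 5 genes were measured. Cyp3a11 read 115, 99.8 and 101 in wild-type sham and 177, 152 and 129 in wild-type ischemic kidneys. Without TLR4 it read 99.5, 46.4 and 118 in sham and 233, 236 and 183 in ischemic kidneys. The ischemic values were higher with no overlap in both genotypes. Cyp3a11 rose by 1.24 ± 0.24 (limma adjusted p = 0.0017) in TLR4 null kidneys, and in wild type the difference was 0.47 ± 0.24 (adjusted p = 0.196). Among the measured liver markers only Alb rose, by 1.25 ± 0.30 and 1.28 ± 0.30, while Apoh fell by 1.15 ± 0.14 and 0.73 ± 0.14. The others were not called and lay below zero. Apoa2 gave -0.48 ± 0.19 and -0.21 ± 0.19, and Ttr -0.16 ± 0.23 and -0.39 ± 0.23. Serpinc1 gave -0.22 ± 0.21 and -0.11 ± 0.21, and Cps1 -0.92 ± 0.41 and -0.33 ± 0.41. The part of these markers was not tested. Of 7 liver markers 6 were measured, with summed signals of 12589 to 14802 in wild-type sham, 10001 to 13570 in wild-type ischemic, 5659 to 10845 in TLR4 null sham and 5232 to 7028 in TLR4 null ischemic kidneys. Most of each sum was Ttr, which read 11434.5 to 13563 in wild-type sham and 3658 to 6036 in TLR4 null ischemic kidneys. The list's mean log2 value differed by -0.09, TLR4 null minus wild type (6 against 6 arrays, exact permutation p = 0.361, adjusted p = 0.51). Ischemic minus sham, it differed by -0.18 (exact permutation p = 0.0433, adjusted p = 0.13). Ahsg was below the filter.

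Cyp2e1, which oxidises ethanol and small ketones, read 13086 to 19149. Its differences were -0.14 ± 0.10 (limma adjusted p = 0.414) in wild type and -0.09 ± 0.10 (adjusted p = 0.613) in TLR4 null kidneys. Under quantile normalization the wild-type value of Cyp2e1 became -0.28 and was called (adjusted p = 0.0119). Cyp1b1, which oxidises estrogens and polycyclic hydrocarbons, read 297 to 649 and gave -0.22 ± 0.16 and -0.33 ± 0.16 (adjusted p = 0.407 and 0.174). The TLR4 null value of Cyp1b1 was -0.53 without ischemic array 2 (adjusted p = 0.0208). Another probe set of Cyp1b1 fell by 0.61 ± 0.17 in TLR4 null kidneys (limma over all probe sets, adjusted p = 0.0208) and gave -0.29 ± 0.17 in wild type (adjusted p = 0.29). Cyp2u1, a fatty acid hydroxylase, gave -0.37 ± 0.31 and -0.23 ± 0.31 (adjusted p = 0.45 and 0.66).

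Of 3 measured genes of steroid hormone synthesis, 1 fell in TLR4 null kidneys, where 11.7% of all genes fell. Cyp11b1, the last enzyme of glucocorticoid synthesis in the adrenal cortex, read 116, 60.1 and 66.5 in TLR4 null sham and 38.9, 36.5 and 30.3 in TLR4 null ischemic kidneys, near the filter level. It fell by 0.89 ± 0.27 (limma adjusted p = 0.0258) there, and in wild type the difference was -0.00 ± 0.27 (adjusted p = 0.996). The call was lost without TLR4 null sham array 1, or ischemic array 2 or 3 (adjusted p = 0.119, 0.051 and 0.0639). Of 6 adrenal cortex markers 4 were measured. In TLR4 null kidneys Star rose by 0.98 ± 0.26 (adjusted p = 0.014), and the other 3 were not called. Mc2r gave -0.91 ± 0.38 (adjusted p = 0.105), with ischemic kidneys below all sham kidneys, Mrap gave -0.46 ± 0.60 (adjusted p = 0.653) and Hsd3b1 -0.04 ± 0.49 (adjusted p = 0.966). Nr5a1 and Akr1b7 were below the filter. The list's summed signals ran from 208 to 280 in TLR4 null sham, 186 to 411 in TLR4 null ischemic, 327 to 358 in wild-type sham and 298 to 626 in wild-type ischemic kidneys. Mrap ran from 95.4 to 403 in wild-type ischemic and from 7.31 to 166 in TLR4 null ischemic kidneys. Within each of these groups it ranked the arrays as the fat marker Adipoq did. Whether the sums reflect adrenal tissue, and their part in the result, was not tested. Cyp21a1, another adrenal steroid hydroxylase, gave -0.24 ± 0.20 and 0.15 ± 0.20 (adjusted p = 0.46 and 0.665).

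The 2 measured CYP26 genes, which break down retinoic acid, were not called. Cyp26b1 varied from 26.0 to 234 over the arrays, with wide spread within groups, and gave -0.55 ± 0.62 and -0.30 ± 0.62 (limma adjusted p = 0.601 and 0.794). Cyp51, the demethylase of cholesterol synthesis, read 1187 to 1867 and gave -0.15 ± 0.12 and -0.01 ± 0.12 (adjusted p = 0.416 and 0.953). Cyp20a1, an enzyme without an assigned role, read 558, 592 and 564 in TLR4 null sham and 485, 486 and 367 in TLR4 null ischemic kidneys. It fell by 0.36 ± 0.12 (adjusted p = 0.0414) there, against -0.19 ± 0.12 (adjusted p = 0.309) in wild type. That call was lost without any 1 of 7 arrays (each sham array and TLR4 null ischemic array 3, adjusted p = 0.0503 to 0.153). It was also lost under median scaling (adjusted p = 0.156), with eBayes without a trend in the variance (0.0692), with arrays weighted by quality (0.0563), with only the arrays of the 2 groups (0.0931) and with the mean of the fat markers as a covariate (0.0516). The mean of its probe sets gave -0.08 (adjusted p = 0.777), and its 2 other probe sets gave -0.09 and 0.22 (adjusted p = 0.731 and 0.734).

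Between the genotypes, 3 of 54 P450 genes differed in sham kidneys, where 0.314% of all genes did (0.0908% higher, 0.223% lower), and 1 of 54 in ischemic kidneys, where 0.656% did. In sham kidneys Cyp2b10 and Cyp4a12a were higher and Cyp2d26 was lower in TLR4 null mice. In ischemic kidneys Cyp2d26 alone was called. The groups did not overlap, with TLR4 null higher, for 10 of 54 genes in sham and 7 of 54 in ischemic kidneys, against 8.11% and 7.05% of all genes. They did so with TLR4 null lower for 2 and 4 genes, against 8.63% and 7.63%.

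**Figure D3:**
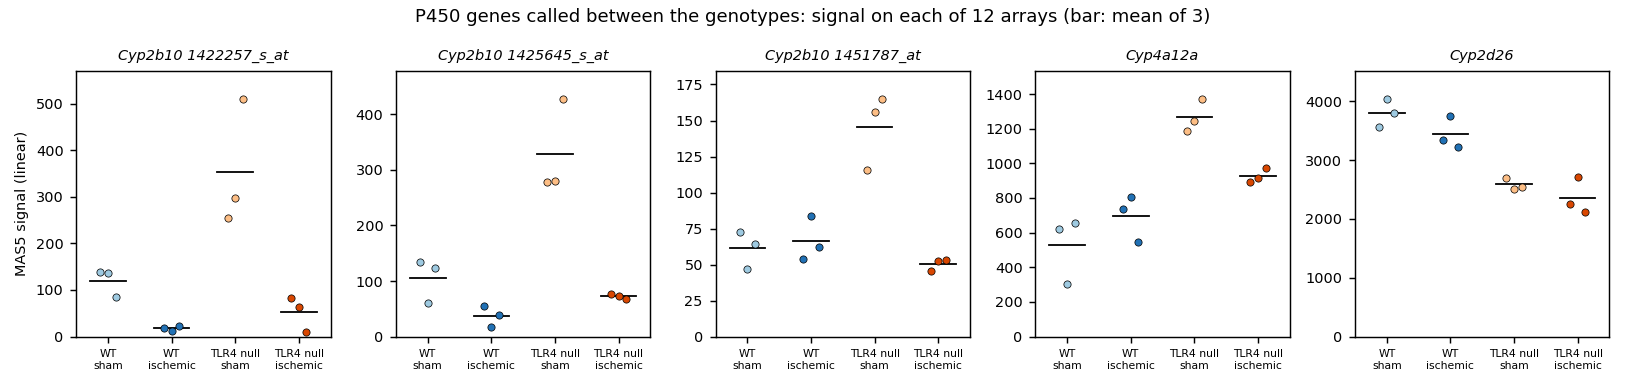
Signal (linear MAS5 units, vertical axis from 0) on each of 12 arrays for the 3 Cyp2b10 probe sets, Cyp4a12a and Cyp2d26. Points are arrays and bars are means of 3. Cyp2d26 was lower in all 6 TLR4 null kidneys than in all 6 wild-type kidneys, and each Cyp2b10 probe set was highest in TLR4 null sham kidneys.

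Cyp2d26, a CYP2D enzyme, read 3569, 4036 and 3807 in wild-type sham and 3346, 3755 and 3227 in wild-type ischemic kidneys. In TLR4 null mice it read 2702, 2512 and 2549 in sham and 2258, 2705 and 2111 in ischemic kidneys, all below every wild-type value. The difference, TLR4 null minus wild type, was -0.55 ± 0.10 in sham (limma adjusted p = 0.0212) and -0.55 ± 0.10 in ischemic kidneys (adjusted p = 0.0186). With ischemia it differed by -0.14 ± 0.10 in each genotype (adjusted p = 0.333 and 0.348). The sham call was lost without any single sham array (adjusted p = 0.0572 to 0.194), and the ischemic call without wild-type ischemic array 2 or 3 or TLR4 null ischemic array 1 (adjusted p = 0.072, 0.0608 and 0.0663). Neither call held under median scaling (sham adjusted p = 0.201, ischemic adjusted p = 0.073).

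Cyp4a12a read 622, 305 and 657 in wild-type sham and 1189, 1244 and 1370.5 in TLR4 null sham kidneys, and 734, 808 and 548 against 891, 914 and 971 in ischemic ones. It was higher in TLR4 null sham kidneys by 1.31 ± 0.22 (limma adjusted p = 0.0182), and in ischemic kidneys the difference was 0.42 ± 0.22 (adjusted p = 0.485). Cyp2b10 was higher in TLR4 null sham kidneys by 1.54 ± 0.30 (adjusted p = 0.0436), and the ischemic difference was 0.82 ± 0.30 (adjusted p = 0.286). Without single arrays the Cyp4a12a call was lost in 4 cases (wild-type sham 1 and each TLR4 null sham array, adjusted p = 0.0517 to 0.0957). The Cyp2b10 call was lost without any sham array, wild-type ischemic array 3 or TLR4 null ischemic array 1 (adjusted p = 0.0521 to 0.239), and neither of its 2 other probe sets passed (adjusted p = 0.252 and 0.0705). With eBayes without a trend none of the sham calls held (adjusted p = 0.148 to 0.17). Macrophage markers had a lower mean log2 value in TLR4 null than in wild-type kidneys, by -0.32 (6 against 6 arrays, exact permutation p = 0.00216, adjusted p = 0.0173). By the same test the fat list gave -1.06 (adjusted p = 0.135) and the neutrophil list -0.32 (0.38). Adrenal cortex, endothelium and podocyte lists gave -0.35, -0.18 and -0.14 (each 0.119), and proximal tubule 0.09 (0.51). The part of these lists in the genotype results was not tested.

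Fat marker signals varied between arrays. Of 7 fat markers 4 were measured, with summed signals of 5276 to 8989 in wild-type sham, 4351 to 12754 in wild-type ischemic, 2898 to 5537 in TLR4 null sham and 2377 to 9023 in TLR4 null ischemic kidneys, and Plin1, Lep and Cfd were below the filter. With the fat score as a covariate, 10 P450 genes were called in wild type and 13 in TLR4 null kidneys, 10 and 12 of them among those called without it.

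The genes that serve the P450 enzymes were described by lists. P450 proteins need heme, and of 11 measured genes of heme synthesis and breakdown 3 fell and 1 rose in wild type, and 5 fell and 1 rose in TLR4 null kidneys. Hmox1, the heme-degrading oxygenase, read 395, 413 and 1493 in wild-type sham and 3169.6, 2364 and 2492 in wild-type ischemic kidneys. For TLR4 null mice the sham values were 1156, 306 and 458 and the ischemic values 6461, 11250.0 and 3108. It rose by 2.05 ± 0.52 (limma adjusted p = 0.0111) and by 3.44 ± 0.52 (adjusted p = 0.000237). Fech, which puts iron into heme, fell by 0.54 ± 0.11 and by 0.41 ± 0.11, and Urod, an earlier enzyme of the route, fell by 0.48 ± 0.08 and by 0.51 ± 0.08. Alas1, the first and rate-limiting enzyme, fell by 1.13 ± 0.24 in TLR4 null kidneys (adjusted p = 0.00355) and gave -0.24 ± 0.24 in wild type (adjusted p = 0.538), with an interaction of -0.89 ± 0.34 (adjusted p = 0.699). The list's medians were -0.13 and -0.23, beside -0.09 and -0.07 over all genes, of which 10.5% fell and 9.17% rose in wild type and 11.7% fell and 9.86% rose in TLR4 null kidneys.

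Of 16 measured regulators of P450 genes, 5 fell and 3 rose in each genotype. Hnf4a, the nuclear receptor that maintains tubular and hepatic P450 genes, read 5262, 5175 and 5313 in wild-type sham and 3874, 3485 and 3275 in wild-type ischemic kidneys. The TLR4 null values were 5996, 6528 and 6079 in sham and 4022, 4389 and 4032 in ischemic kidneys. It fell by 0.57 ± 0.08 (limma adjusted p = 0.000102) and by 0.58 ± 0.08 (adjusted p = 8.55e-05), with no overlap in either genotype. Rxra, the partner of many nuclear receptors, fell by 0.40 ± 0.11 and by 0.67 ± 0.11. Dbp, a clock-controlled activator of P450 genes, rose by 1.18 ± 0.19 and by 1.05 ± 0.19, and Cebpb, an injury-responsive factor, rose by 1.06 ± 0.19 and by 1.30 ± 0.19. The list's medians were -0.21 and -0.15, beside -0.09 and -0.07 over all genes. Of all genes 10.5% fell and 9.17% rose in wild type, and 11.7% fell and 9.86% rose in TLR4 null kidneys.

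Picked after their values were seen, Ppara fell by 0.89 ± 0.17 (limma adjusted p = 0.00134) and by 0.79 ± 0.17 (adjusted p = 0.003), and Ahr, the receptor that induces CYP1 genes, rose by 0.82 ± 0.17 (adjusted p = 0.00266) and by 0.91 ± 0.17 (adjusted p = 0.00119). The probe sets that represent the 2 measured CYP1 genes were not called, while another one of Cyp1b1 fell in TLR4 null kidneys, as given above. Whether any of these regulators bears on a P450 gene was not tested.

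**Figure D4:**
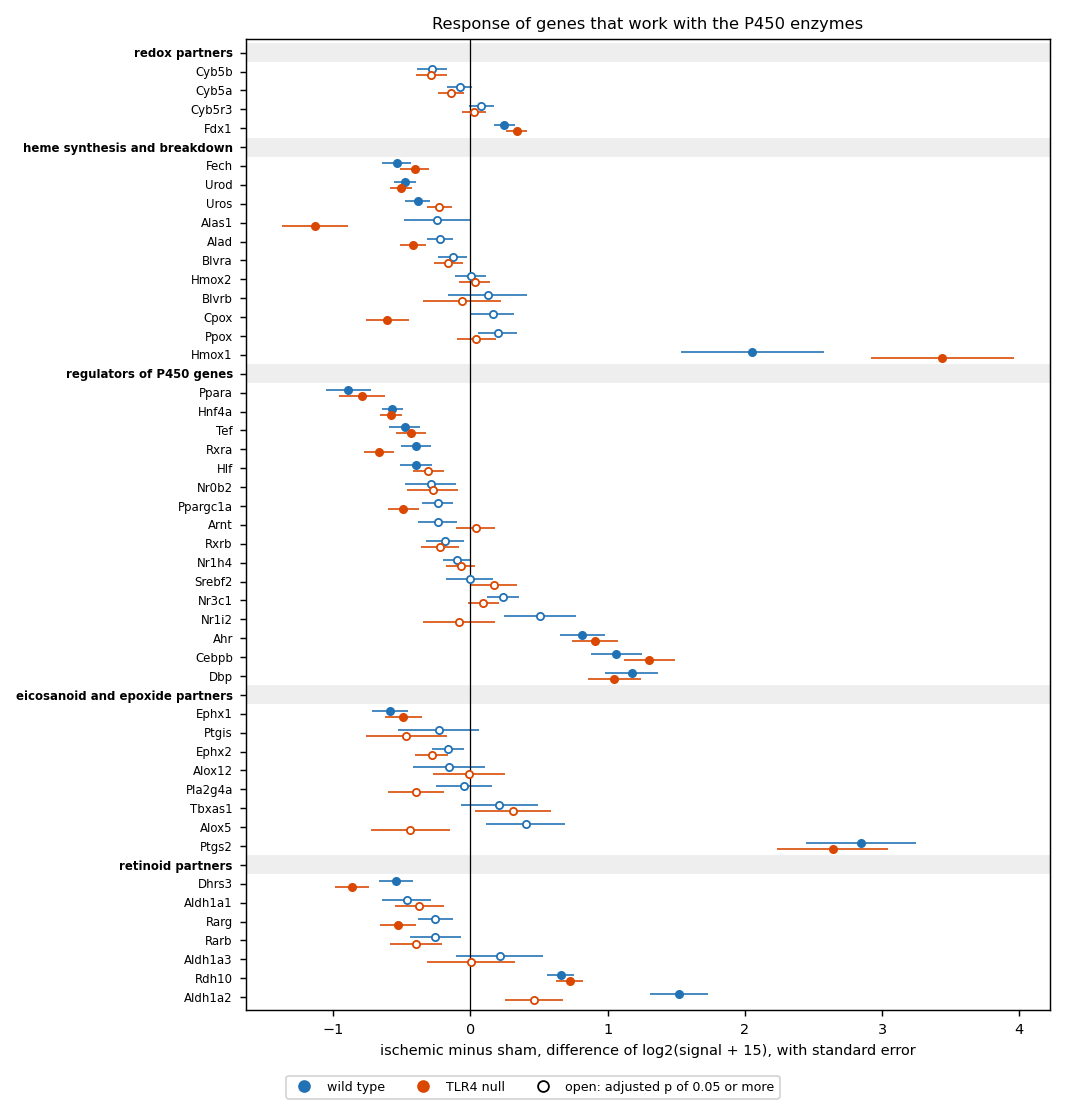
Ischemic minus sham difference of log2(signal + 15), with its standard error, for 46 measured genes of 5 lists of P450 partners, in wild type (blue) and TLR4 null (orange). Filled points passed an adjusted p of 0.05. Ptgs2 and Hmox1 lie farthest right, and Hnf4a lies at -0.57 and -0.58.

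Of 8 measured eicosanoid and epoxide partners, 1 fell and 1 rose in each genotype. Ptgs2, the inducible cyclooxygenase that competes for arachidonic acid, read 28.8, 47.3 and 14.2 in wild-type sham and 299, 285 and 300.1 in wild-type ischemic kidneys. TLR4 null sham kidneys gave 36.8, 4.50 and 1.79, and TLR4 null ischemic kidneys gave 85.4, 198 and 177. It rose by 2.85 ± 0.40 (limma adjusted p = 0.000137) and by 2.64 ± 0.40 (adjusted p = 0.000251). Ephx1, the microsomal epoxide hydrolase, fell by 0.59 ± 0.13 and by 0.49 ± 0.13. Ephx2, the soluble hydrolase of arachidonic acid epoxides, gave -0.16 ± 0.12 and -0.28 ± 0.12, and Pla2g4a, which releases arachidonic acid, gave -0.05 ± 0.21 and -0.39 ± 0.21. The list's medians were -0.10 and -0.34, against -0.09 and -0.07 for all genes. The shares of all genes were 10.5% lower and 9.17% higher in wild type, and 11.7% and 9.86% in TLR4 null kidneys.

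Of 7 measured retinoid partners, 2 rose and 1 fell in wild type, and 1 rose and 2 fell in TLR4 null kidneys. Rdh10, which makes retinal from retinol, rose by 0.66 ± 0.10 and by 0.72 ± 0.10. Dhrs3, which turns retinal back to retinol, fell by 0.54 ± 0.12 and by 0.86 ± 0.12. Aldh1a2, which makes retinoic acid, read 45.9, 76.6 and 57.4 in wild-type sham and 165, 221 and 209 in wild-type ischemic kidneys. It rose by 1.52 ± 0.21 (limma adjusted p = 0.000121) in wild type and gave 0.46 ± 0.21 (adjusted p = 0.141) in TLR4 null kidneys, with an interaction of -1.06 ± 0.30 (adjusted p = 0.52). Rarg, a retinoic acid receptor, fell by 0.53 ± 0.13 in TLR4 null kidneys and gave -0.26 ± 0.13 (adjusted p = 0.195) in wild type. The list's medians were -0.26 and -0.37, against -0.09 and -0.07 for all genes. In wild type 9.17% of all genes rose and 10.5% fell, and in TLR4 null kidneys 9.86% and 11.7%.

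Of 4 measured redox partners, 1 rose in each genotype, beside 9.17% of all genes in wild type and 9.86% in TLR4 null kidneys. Fdx1, the ferredoxin that feeds electrons to mitochondrial P450 enzymes such as CYP27A1, rose by 0.25 ± 0.08 (limma adjusted p = 0.0349) and by 0.34 ± 0.08 (adjusted p = 0.00548). Cyb5a, cytochrome b5, gave -0.08 ± 0.09 and -0.14 ± 0.09. Cyb5b, its mitochondrial form, gave -0.28 ± 0.11 in both genotypes (adjusted p = 0.0978 and 0.0877), and Cyb5r3, the reductase of cytochrome b5, gave 0.08 ± 0.09 and 0.03 ± 0.09. The list's medians were 0.00 and -0.06, against -0.09 and -0.07 for all genes.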

How the data were processed

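RNA of 12 kidneys in 4 groups of 3, taken from the labels, was hybridised to Affymetrix arrays. The authors deposited linear signal intensity for 45101 probe sets, 64 of them controls, made with MAS5 (version and scaling target not given in the sources used here), per the submitters' processing notes. Every array has the same trimmed mean, and that scaling was kept.

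The deposited intensity was taken as log2(signal + 15). Names came from the platform annotation (34945 probe sets with 1 gene, 932 with several, 9160 with none), updated through Entrez numbers where these matched (34741). After the filter, 30326 probe sets and 14322 genes were left. Genes were fitted with limma 3.58.1 in R 4.3.3 (lmFit, eBayes with a trend) with 1 mean per group and 8 residual degrees of freedom, in 5 comparisons. Two-sided p-values were adjusted within each comparison (Benjamini-Hochberg, all 14322 genes, with probe sets in a fit of their own). Errors are standard errors of differences, and the understated fold of low signals on this scale applies throughout. Array measures used exact permutation (scipy 1.17.1, Python 3.11.15). The steps were tested on simulated data.

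Genes named are, among the P450 genes, the one with the highest mean in each role class, those called in any comparison (up to 12 per comparison and direction) and the 3 with the smallest interaction p, and up to 4 of each partner list by p. The genes and lists were chosen with earlier results of these data known. Alternatives were quantile and median scaling, pseudocounts of 1 and 60, other filters, the mean of probe sets, no _x_at or _s_at probe sets, other probe sets of a gene, eBayes without a trend, array weights, only 2 groups, a replicate block, a fat score and leaving out each array.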

Additional observations from a re-analysis of the deposited data

Results flagged for a closer look

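A probe set outside the comparisons, because it names both Cyp2a5 and Cyp2a4, differed between genotypes. It read 4523, 3636 and 3679 in wild-type ischemic and 5913, 8765 and 6447 in TLR4 null ischemic kidneys, higher by 0.82 ± 0.15 on the log2 scale (limma over all probe sets, adjusted p = 0.0318). In sham kidneys it read 4429.6, 4054 and 5811 in wild-type and 6775, 7905 and 6592 in TLR4 null mice, a difference of 0.58 ± 0.15 (adjusted p = 0.186). All 6 TLR4 null kidneys lay above all 6 wild-type kidneys. Both genes encode enzymes of the same subfamily, and the probe set cannot tell their transcripts apart.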

How the results depend on the processing

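The counts of P450 genes called after ischemia stayed within 1.5 times those reported under every alternative run, 8 to 12 in wild type under quantile or median scaling and 9 to 10 without single arrays, and 10 to 15 in TLR4 null kidneys without single arrays. No interaction was called under any (0 to 0 without single arrays). The genotype counts were less stable. Without single arrays they ran from 0 to 3 in sham and from 0 to 2 in ischemic kidneys. eBayes without a trend gave 0 in sham and 0 in ischemic kidneys, median scaling gave 0 in ischemic, only the arrays of the 2 groups gave 0 in ischemic, and quantile normalization gave 2 in ischemic kidneys. The cause was not tested. With a replicate block the counts were 10 in wild type, 12 in TLR4 null, 0 for the interaction, 3 in sham and 1 in ischemic kidneys, the call of Cyp20a1 in TLR4 null kidneys ended (adjusted p = 0.0578), and same-numbered arrays did not deviate together (r = -0.0624 to 0.104).

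Of 754 values of named genes under other settings, 699 kept direction and side of the threshold, 29 lost the call, 11 gained it and 15 changed sign. Without single arrays these were 605, 43, 6 and 18 of 672. Most sign changes were in uncalled values near 0. In wild type, Cyp11b1 became 0.076 under quantile normalization, 0.070 under median scaling and 0.00087 with a pseudocount of 60. Cyp2j6 became 0.016 under quantile normalization, 0.057 under median scaling and 0.0032 with the fat score. Cyp4b1 became -0.15 under quantile normalization. Cyp2b10, called in wild type, became 0.10 without _x_at and _s_at probe sets or by its probe set without a shared suffix (0.10). Cyp21a1 became 0.19 by another probe set, and in TLR4 null kidneys -0.70 by it and -0.27 by the mean of probe sets. In TLR4 null kidneys Cyp2u1 became 0.0031 with array weights, Cyp51 0.00080 under median scaling and Cyp20a1, called there, 0.22 by another probe set. Without single arrays, the wild-type values ran from -0.14 to 0.14 for Cyp11b1, from -0.21 to 0.19 for Cyp2c38, from -0.073 to 0.012 for Cyp2j6 and from -0.064 to 0.095 for Cyp4b1. The TLR4 null values ran from -0.89 to 0.49 for Cyp26b1, from -0.13 to 0.022 for Cyp2c23, from -0.44 to 0.17 for Cyp2u1 and from -0.11 to 0.053 for Cyp51. Calls also ended for Cyp2c55 in wild type with no filter (adjusted p = 0.0503) or without a trend (0.0519), and in TLR4 null kidneys for Cyp2d9 without a trend (0.0545), Cyp2c38 with array weights (0.117) and Cyp11b1 with only the arrays of the 2 groups (0.0764). The filter, at signals of 40.3 to 51.6, limits what can be seen of dim genes such as Cyp11b1.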
